A study of Caenorhabditis elegans with 4 samples.

Results

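The peaks of the transcription factor NHR-11 on chromosome II of the nematode Caenorhabditis elegans are described here. They were mapped by chromatin immunoprecipitation and sequencing (ChIP-seq). The members were all peaks that the series-wide list places on chromosome II, 390 of 2836. The list of ChIP replicate 1 had 35 peaks on II among 328, and the list of ChIP replicate 2 had 39 among 258.

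All samples were late embryos of strain OP305, hermaphrodites grown at 20 °C. The strain carries the mutation unc119(ed3) and the transgene wgIs305, in which nhr-11 is joined to TY1, EGFP and FLAG tags and unc119 is included. It was made by bombardment and outcrossed 3 times. The ChIP group had 2 samples precipitated with anti-GFP antibodies, and the input group had 2 samples of total genomic DNA from the same strain. Both groups therefore share the mutant background and the transgene. The embryos were lysed whole, so a peak is an average over all their cell types. Nothing in the labels says that the replicates were separate cultures, so their differences may be technical.

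NHR-11 belongs to the nuclear hormone receptors, DNA-binding transcription factors that in many cases change their activity when a small lipophilic molecule binds them. C. elegans has many more such genes than mammals, most of them without a known ligand. C. elegans autosomes have no single centromere. Their centres are rich in conserved and broadly expressed genes, and their arms recombine more often and hold more repeats. A ChIP-seq peak marks where the tagged protein, or chromatin it is attached to, was enriched, and in this species many strong peaks lie where numerous factors are found together.

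Each peak has a start and an end on build WS220 and 1 significance value, called the authors' score here. It is a p-value or q-value, which of them is not stated, and a smaller value means a stronger peak. Read depth is unknown. The series-wide numbers reach 2869 for 2836 peaks, and the 33 numbers without a peak were not analysed here. No peak sequence or neighbouring gene is given, because no genome of this build was used here. In the WBcel235 gene table nhr-11 itself is on chromosome IV and unc-119 on III, so neither gene is native to II. Chromosome IV held 228 series-wide peaks, fewer than any other chromosome, and the comparisons below therefore set II against the other 3 autosomes, I, III and V.

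The strongest site on chromosome II was II:14337583-14339163, in the right arm. It was 1581 bp wide and carried a score of 8.62e-49, number 4 in its list. In replicate 1 it was 1565 bp wide (4.33e-49, number 4) and in replicate 2 it was 1571 bp wide (2.85e-64, number 4). Summed over its start and end, the replicate calls differed by 6 bp. The next best score on II was 7.53e-26 in the series-wide list, 1.07e-16 in replicate 1 and 6.50e-22 in replicate 2, so this site led II in every list.

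The second site, II:5144937-5145424, spanned 488 bp with a score of 7.53e-26. Its score was 5.16e-13 in replicate 1 and 6.46e-19 in replicate 2, where its edges differed by a summed 5 bp. The third, II:5543265-5544029, was 765 bp wide with 1.15e-22, and its replicate scores were 1.82e-09 and 4.57e-08. Both lie near the left edge of the centre of the chromosome, and a further strong site, II:5844603-5845201 (599 bp, 4.64e-15), lies beside them. These 3 sites fall within 1 bin of 1 Mb that held 23 series-wide peaks.

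A second group of strong sites lay to the right, where the centre meets the right arm. It comprised II:9404592-9405362 (771 bp, 2.66e-16), II:10168743-10170126 (1384 bp, 2.63e-22), II:10541956-10542940 (985 bp, 3.65e-16) and II:10562986-10563942 (957 bp, 6.71e-13). All 4 were called in both replicates. The site at II:9404592 had a score of 1.07e-16 in replicate 1 and 6.50e-22 in replicate 2. Among the 16 regions of II found in all 3 lists it came second in each replicate list and sixth in the series-wide list. The site at II:11759262-11759531 was narrow for its strength, at 270 bp and 8.01e-18.

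The other member of the 10 best on II was II:65660-67094, near the left end, 1435 bp wide with a score of 9.52e-15. Neither replicate list held it. Together 13 peaks on II had a score under 1e-10, that is 3.33% of its peaks, against 3.49% of all series-wide peaks and 2.82% of those on I, III and V (46 of 1633). Of these 13 peaks 11 were in both replicate lists. The exceptions were the site near the left end and II:10201978-10205205, 3228 bp wide with 9.65e-13, which is described again below.

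In all, 16 series-wide peaks on II overlapped a peak of both replicate lists by at least 1 bp, 4.10% beside 4.69% of all series-wide peaks. The remaining members of this set, in order of score, were II:628821-629082 (2.04e-11), II:9603231-9603659 (7.93e-11), II:14561631-14561829 (1.10e-10), II:12845946-12846196 (6.67e-10), II:12102321-12102752 (3.20e-09), II:5661242-5661451 (2.57e-08) and II:7642206-7642812 (3.58e-07). Only II:628821 lay in the left arm, taken as the outer 33.3% of the chromosome, while 8 were in the centre and 7 in the right arm. Across the 16, the summed difference between the replicates in start and end had a median of 81.5 bp and ran up to 474 bp at II:10562986. It was 100 bp or less at 9 of them. Scores of different lists are not on a known common scale, so they can be ordered within a list but not set against those of another.

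**Figure D1:**
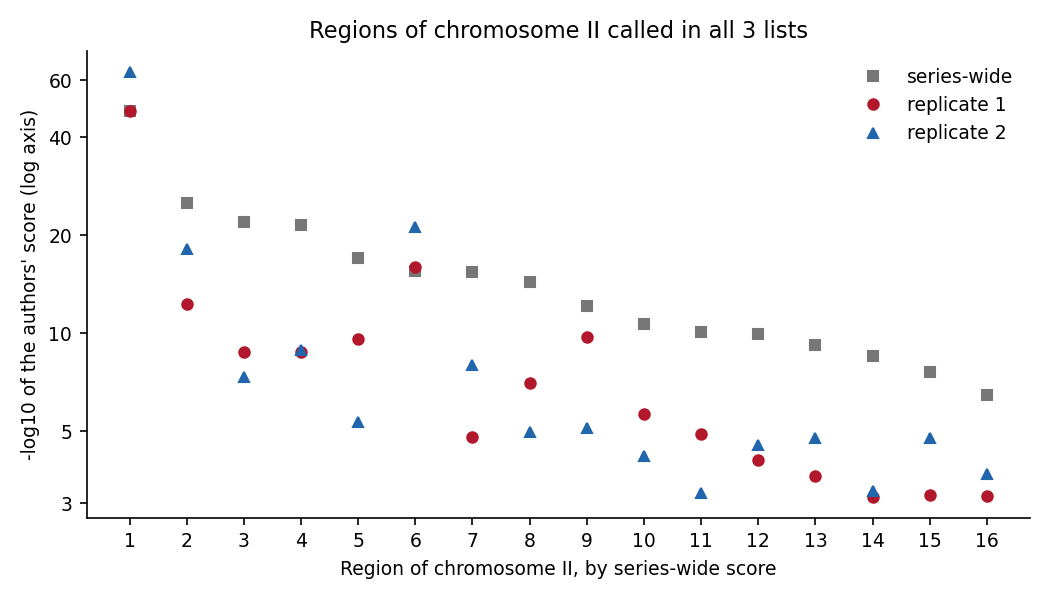
Each column is 1 of the 16 regions of chromosome II called in all 3 lists, ordered by series-wide score. The vertical axis is −log10 of the authors' score on a log axis, with squares for the series-wide list, circles for replicate 1 and triangles for replicate 2. The first region (series-wide 48.1, replicate 1 48.4, replicate 2 63.5) stands above the second (25.1, 12.3 and 18.2), and the sixth has replicate values of 16.0 and 21.2 above those of its neighbours.

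Chromosome II carried fewer peaks for its length than I, III and V. Its density was 25.5 peaks per Mb over 15269296 bp, against 34.0 on I, 35.6 on III and 30.2 on V, or 32.8 over these 3 together (1633 peaks). The ratio was 0.778 (95% exact interval 0.695 to 0.869, two-sided exact binomial test, p = 5.60e-06, adjusted p = 2.24e-05 over the 4 tests made). Neighbouring peaks are not independent, so this p-value is too small to that extent. With neighbours within 10000 bp counted once, the ratio was 0.773 (0.672 to 0.887, adjusted exact p = 0.00069). This count does not remove the dependence, because the number of peaks on II also varied several-fold between bins of 1 Mb, as given below. The exact test takes peaks as its units, not chromosomes. Its p-values for density, here and below, therefore cannot tell whether II departs from the usual spread between chromosomes.

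The ratio stayed below 1 when II was set against each of them singly, at 0.752 against I (0.657 to 0.859), 0.717 against III (0.626 to 0.821) and 0.847 against V (0.745 to 0.963). Among the 50% of peaks with the best scores the ratio was 0.844 (0.721 to 0.984). There it missed the threshold only after adjustment (exact p = 0.0286, adjusted exact p = 0.114). It also missed it in the list of replicate 2 (0.870, 0.595 to 1.25, adjusted exact p = 0.708), while that of replicate 1 gave 0.588 (0.398 to 0.846, adjusted exact p = 0.0118). With IV, itself low, added to the chromosomes compared, the ratio was 0.923 and did not pass either (adjusted exact p = 0.633).

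Along II the number of peaks varied several-fold between bins of 1 Mb. The 15 full bins held a median of 22 peaks, with a lowest value of 11 and a highest of 41, against medians of 34, 33 and 29 on I, III and V. The eleventh bin, 10 to 11 Mb, was the fullest with 41, and the first was next with 38. The second bin, 1 to 2 Mb, was the emptiest with 11 peaks. From 5 to 9 Mb, the 4 bins held 23, 19, 18 and 22 peaks, 82 in all, whereas the 2 bins from 9 to 11 Mb held 32 and 41, 73 in all.

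The ends of II were well filled. Its first 1 Mb had 38 peaks and its last 1 Mb had 41, against 43 and 36 on I, 40 and 60 on III, and 43 and 48 on V. The left end was crowded over a short distance, with 23 peaks in the first 200 kb against 16 on I, 13 on III and 19 on V. The last 200 kb held 17, against 5, 23 and 27. The first peak was II:1155-1948 and the last II:15269104-15269296. In replicate 2 a peak lay further out still, II:130-500 (4.42e-04), which the series-wide list lacked. The lowest bins of II all lay between its ends.

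**Figure D2:**
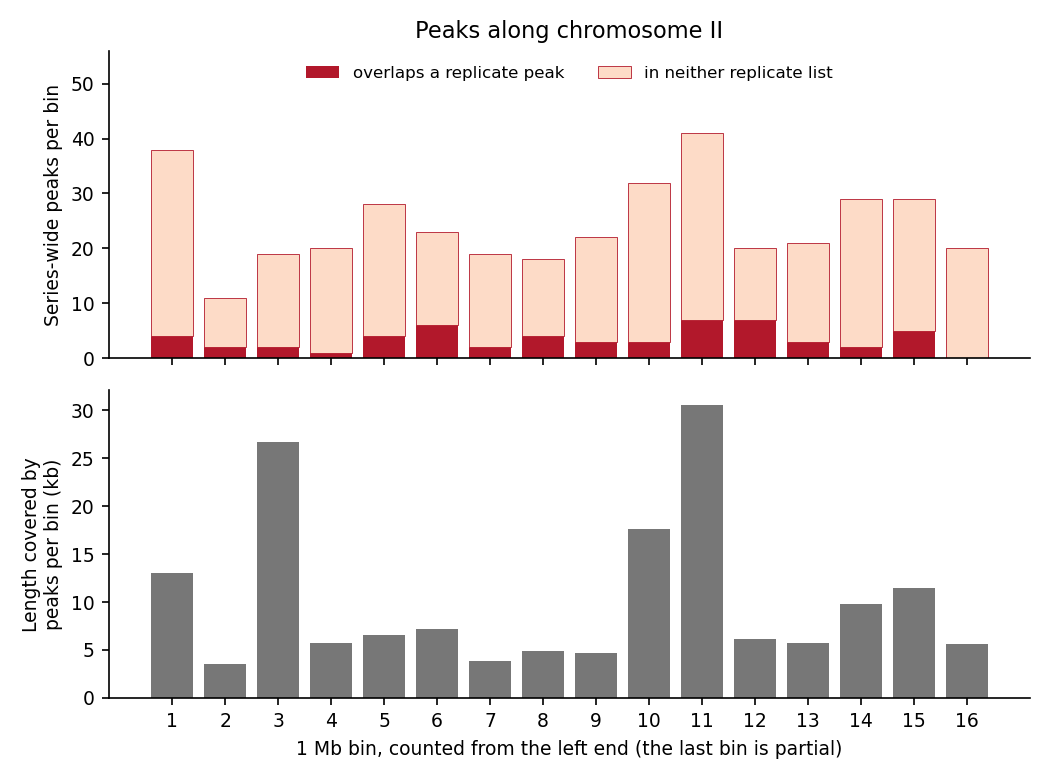
The upper panel gives series-wide peaks in each 1 Mb bin of chromosome II, with dark parts for peaks that overlap a replicate peak, and the lower panel gives the length those peaks cover in kb. Bins 1 and 11 have the most peaks (38 and 41), and bins 3, 10 and 11 cover the most length (26.7, 17.6 and 30.6 kb), while the dark part never exceeds 7 peaks.

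With the arms defined as the outer 33.3% at either end, the centre of II (5.09 to 10.2 Mb) held 128 of the 390 peaks, or 32.8% (95% Wilson interval 28.3 to 37.6). Against its share of the length, this count did not pass the test (two-sided exact binomial test, p = 0.872, adjusted p = 0.872). On I, III and V the centres held 565 of 1633 peaks, 34.6%. The difference of −1.78 percentage points (−6.83 to 3.54) did not pass Fisher's exact test (p = 0.514, adjusted p = 0.708).

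The left arm of II had 118 peaks (23.2 per Mb), the centre 25.1 per Mb and the right arm 144 (28.3 per Mb), and the arms were not tested against each other. The even share of the centre also hid a split within it. Its part before 9 Mb held 80 peaks with a median width of 205.5 bp, and the remainder, little more than 1 Mb long, held 48 with a median of 574.5 bp. These boundaries were chosen after the values were seen, and the split was not tested.

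**Figure D3:**
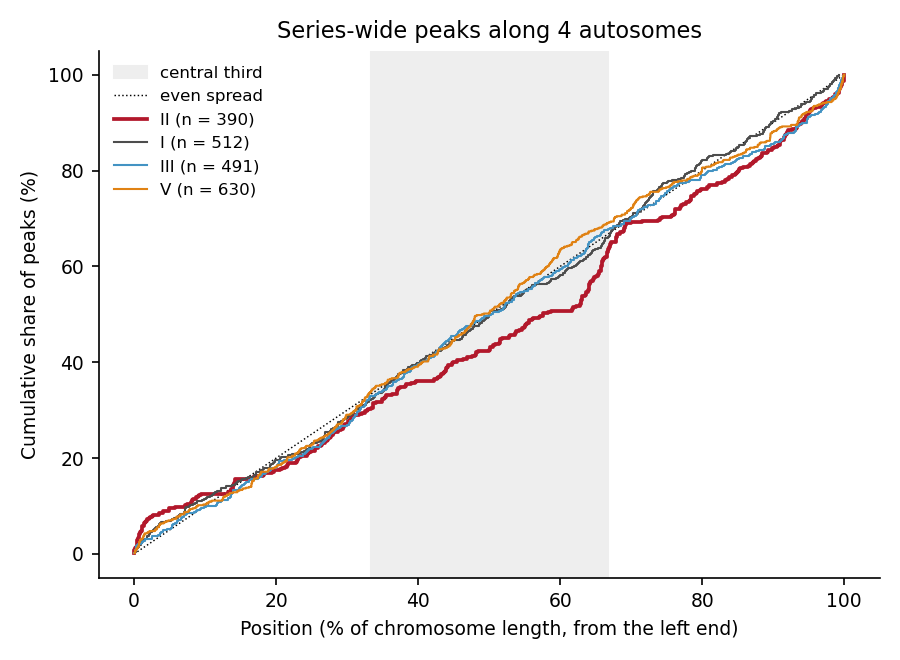
Lines give the cumulative share of series-wide peaks against position in percent of chromosome length, for II (390 peaks), I (512), III (491) and V (630), with the centre shaded and an even spread dotted. The line of II climbs steeply at its left end, stays under those of I, III and V through most of the centre, and climbs steeply again near the right edge of the centre.

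The typical distance between neighbours was about the same as elsewhere, with a median gap of 18794 bp on II against 18597 on I, 18241.5 on III and 18373 on V. The share of gaps of 10000 bp or less was 34.7% on II (135 of 389), against 32.3%, 34.5% and 35.8%. What II had more of than I, III and V were long empty stretches. Chromosome IV, left out of the comparison, had more still, with 22 gaps over 200 kb (37.2% of its length). Chromosome II held 9 such gaps, which made up 3.01 Mb or 19.7% of its length, against 2 on I (3.20%), 1 on III (1.50%) and 4 on V (4.83%).

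The longest of these, II:1442691-2012828, spanned 570138 bp, and the next was II:8954411-9404591 with 450181 bp. Those at II:2169221-2564969 (395749 bp), II:6062055-6450251 (388197 bp) and II:10924659-11265275 (340617 bp) followed. Each of these 5 exceeded the longest gap of I (261139 bp), III (207132 bp) and V (304102 bp). The longest gap of IV was longer than all of them, at 887151 bp. No replicate peak lay wholly inside any of the 9 gaps of II. Nearly all replicate peaks of II overlapped a series-wide peak (34 of 35 and 37 of 39), so this is no separate support for the gaps. Of the windows of 100 kb, 29 of 152 on II were without a peak (19.1%), against 8 of 150 on I (5.33%), 7 of 137 on III (5.11%) and 16 of 208 on V (7.69%). On IV 59 of 174 were (33.9%).

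Outside its gaps over 200 kb, II had 31.8 peaks per Mb, against 35.1 on I, 36.2 on III and 31.7 on V on the same count. With gaps over 300 kb left out the value was 29.7 on II, against 34.0, 35.6 and 30.6. With gaps over 100 kb left out it was 44.3, against 39.6, 42.6 and 41.3. The 3 limits were set after the gaps were seen, so these values are a description with no test.

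**Figure D4:**
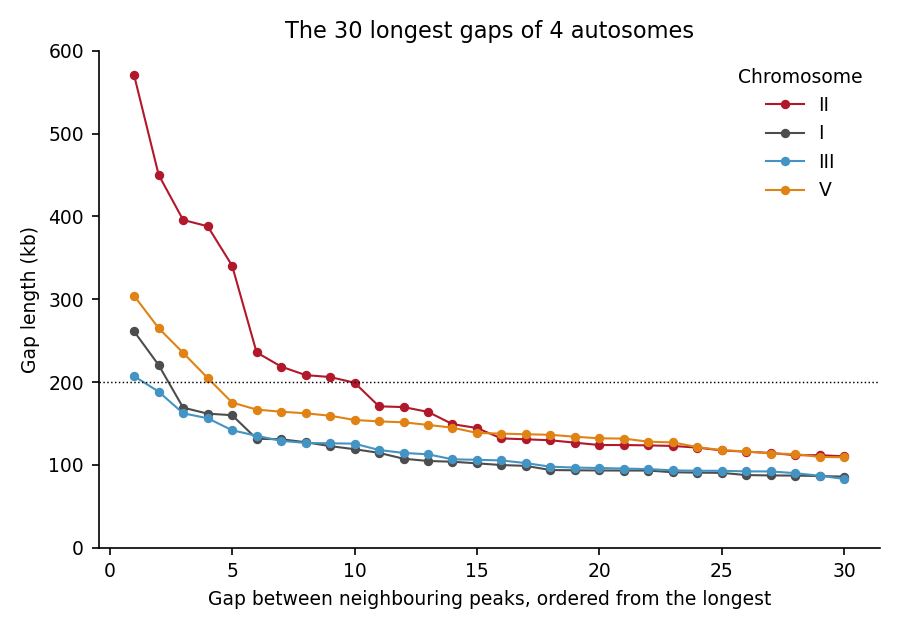
Points give the length in kb of the 30 longest gaps between neighbouring series-wide peaks on II, I, III and V, ordered from the longest, with a dotted line at 200 kb. The first 5 gaps of II, 340.6 to 570.1 kb, lie above every gap of the other 3, and from about the fifteenth on II and V run together.

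Neighbours within 10000 bp of each other formed runs. Counting each run once left 255 on II, of which 177 were single peaks, 45.4% of its peaks against 45.9% on I, 44.6% on III and 45.9% on V. Runs of 5 or more numbered 8, against 4 on I, 8 on III and 13 on V. The fullest had 7 peaks at II:52954-74206 and includes the strong site near the left end, and others at II:94146-125282 and II:156042-174377 had 5 each. A run of 5 closed the right end at II:15261709-15269296. None of these 4 runs held a peak found in both replicates. Only 4.10% of all II peaks were in both lists, so the lack of one in so few peaks tells little.

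Peaks on II had a larger median width than those on I, III and V. The median width was 266 bp (interquartile range 178 to 469) on II, against 223 bp on I, 215 on III and 210 on V. Chromosome IV, left out of the comparison, had a median of 251.5 bp. By class, 22 peaks of II were under 50 bp (5.64%, against 9.52% of all series-wide peaks), 110 had 50 to under 200 bp, 172 had 200 to under 500 bp, 62 had 500 to under 1000 bp and 24 had 1000 bp or more. The last class made up 6.15% of II (95% Wilson interval 4.17 to 8.99), against 2.05% of all series-wide peaks, 0.391% on I (2 peaks), 1.63% on III (8) and 1.27% on V (8). On IV the class made up 3.51% (8 peaks).

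The widest peaks were concentrated in 2 stretches. The first, II:2012829-2143804, held 9 peaks over 131.0 kb, of which 18.2% was covered. Its widths ran from 753 to 5620 bp with a median of 2852, and 8 of the 9 reached 1000 bp. It includes the widest peak of the chromosome, II:2089813-2095432 (5620 bp, 3.23e-04), and II:2125650-2128848 (3199 bp), II:2140666-2143804 (3139 bp) and II:2132078-2134949 (2872 bp). The longest gap of II lies immediately to its left, and the third longest begins 25417 bp to its right.

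The second stretch, II:9983249-10205205, held 23 peaks over 222.0 kb, of which 9.48% was covered. Widths there ran from 35 to 3228 bp with a median of 584, and 8 reached 1000 bp. Its widest member was the strong but unreplicated II:10201978-10205205. The stretches were chosen from earlier results on these same peaks, so their width is a description. The peaks just outside them were II:1442194-1442690 (497 bp), II:2159994-2160185 (192 bp), II:9977605-9978267 (663 bp) and II:10227923-10228179 (257 bp), and the outermost peaks inside had 2047, 3139, 438 and 3228 bp.

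Few peaks of the stretches were in a replicate list. In the first stretch 1 of 9 peaks was in the list of replicate 2 and 0 in that of replicate 1, and the best score was 1.42e-06. In the second, 3 of 23 were in a replicate list and 1 in both, II:10168743. Over both stretches that made 4 of 32, or 12.5%, close to the 14.1% of II as a whole. Of the 24 peaks of 1000 bp or more on II, 21 were in neither list (87.5%), near the 85.9% of all II peaks (335 of 390). On I, III and V 7 of 18 such peaks were in neither list, beside 84.5% of all their peaks, and this difference was not tested.

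Without the stretches, 8 of 358 peaks on II reached 1000 bp (2.23%, 1.14 to 4.35), against 1.10% on I, III and V (18 of 1633, 0.698 to 1.74). On IV, with nothing left out, the share was higher, at 3.51% (8 of 228, 1.79 to 6.77). Of the 8 on II, 6 lay 22210 to 537077 bp from a stretch. They were II:2166014-2167065, II:9444819-9446172, II:9891532-9892687, II:10228848-10229883, II:10375133-10376364 and II:10548174-10549809, all in neither replicate list. The other 2 were the strongest site of II and the strong site near the left end. Left out as whole bins, 2 to 3 Mb and 9 to 11 Mb took 22 of the 24 with them, and 2 of 298 remained (0.671%).

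Without the stretches, peaks of 500 to under 1000 bp made up 14.8% of II (53 of 358), against 10.4% on I, 5.50% on III and 7.94% on V, and the median width was 253.5 bp. On IV this class held 11.8% (27 of 228) and the median width was 251.5 bp, so wider peaks were not particular to II. With the second stretch included, 40 of the 73 peaks from 9 to 11 Mb reached 500 bp (54.8%), and 6 of the 82 from 5 to 9 Mb did (7.32%). Outside the 3 bins the class held 11.4% (34 of 298) and the median was 235.5 bp. Covered length followed the stretches only in part. From 9 to 11 Mb peaks covered 48203 bp, of which the second stretch held 21052 bp. Peaks covered 10673 bp per Mb of II, against 8956 on I, 9335 on III and 7876 on V, and 7912 bp per Mb without the stretches, which held 45.0 of its 163.0 kb. None of the differences in width or covered length was tested.

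**Figure D5:**
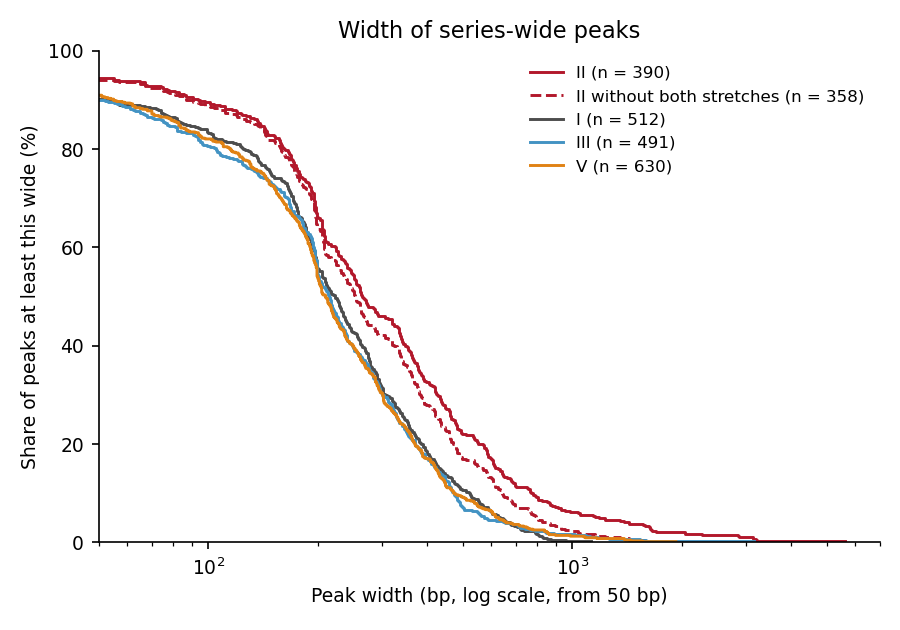
Lines give the share of series-wide peaks at least as wide as the value on the log-scaled horizontal axis, from 50 bp, for II (solid and, without both stretches, dashed), I, III and V. At 500 bp the line of II is at 22.1% and the dashed line at 17.0%, above 10.7% on I, 7.13% on III and 9.21% on V.

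Most peaks on II were in the series-wide list alone. Of the 390 peaks 55 overlapped a peak of either replicate list (14.1%), beside 15.0% of all series-wide peaks and 15.5% on I, III and V (253 of 1633). The difference of −1.39 percentage points (−5.00 to 2.77) did not pass Fisher's exact test (p = 0.531, adjusted p = 0.708). Replicate 1 held 34 (8.72%, beside 10.9% of all), replicate 2 held 37 (9.49%, beside 8.71% of all) and both held the 16 described above. The series-wide list may rest on the reads of both replicates, and then its overlap with their lists is not independent.

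Support ran with the score, which may itself rest on the reads of both replicates. Among the 25 best-scored peaks of II 22 were in a replicate list (88.0%, 70.0 to 95.8). Of the peaks ranked 26 to 50 on II 13 were, of those ranked 51 to 100 11 were, and of the following 100 peaks 6 were. The last 190 included 3 (1.58%). The 3 of the first 25 in neither list were II:65660, II:10201978 and II:12042039-12042830 (792 bp, 1.42e-08). Peaks in both lists had a median −log10 score of 13.3 and a median width of 543.5 bp, against 3.60 and 252 bp for the 335 in neither. All 22 peaks under 50 bp were in neither list, as were 151 of the 156 such peaks on I, III and V. By position, 13 of the 118 left-arm peaks were in a replicate list, 21 of 128 in the centre (16.4%) and 21 of 144 in the right arm (14.6%), and this spread was not tested.

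Read from the replicates, 17 of the 35 replicate 1 peaks on II overlapped a replicate 2 peak (48.6%, 33.0 to 64.4, beside 42.7% of all its peaks), and 17 of the 39 replicate 2 peaks overlapped a replicate 1 peak (43.6%, 29.3 to 59.0, beside 53.5% of all). The series-wide list held 34 of the 35 (beside 94.8% of all replicate 1 peaks) and 37 of the 39 (beside 95.7% of all replicate 2 peaks). One region was called in both replicates with nearly the same edges and was not among the series-wide peaks. It was II:3994525-3994976 in replicate 1 (452 bp, 3.07e-04) and II:3994524-3994976 in replicate 2 (453 bp, 8.37e-06). The strongest replicate 2 peak on II without a replicate 1 partner was II:8561063-8561499 (2.30e-07), which the series-wide list had at 1.64e-10. In replicate 1 it was II:3960039-3960694 (2.78e-05), at 3.75e-08 series-wide.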

How the data were processed

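ChIP samples came from embryos crosslinked with 2% formaldehyde, per the labels' protocols. The deposited lists give 1 p-value or q-value per peak. Peaks were called with PeakSeq on build WS220, per the file headers and columns. Not given in the sources used here are the aligner, caller version, caller settings, the control and how the series-wide list was made. Read depth is unknown, and intervals cover counting error only.

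Peaks were compared in Python 3.11.15 with SciPy 1.17.1, on functions checked on simulated data. Overlap meant 1 bp or more. Chromosome length was taken up to the last peak found by any list. Of 4 tests, adjusted by Benjamini-Hochberg, 2 were exact binomial and 2 were Fisher's exact tests, all two-sided. Intervals of shares are Wilson, of differences Newcombe.

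Regions named are the 10 best-scored on II, the next 5 in both replicate lists, the 5 widest, the end peaks, the longest gap, the extreme Mb bins and the stretches. Others were named after their values were seen. Members, stretches and comparisons were chosen with earlier results of these data known.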

Additional observations from a re-analysis of the deposited data

How the results depend on the processing

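Of 51 alternative values, 34 gave the same direction and call as the main analysis, or, with no test, lay inside its interval. Covered length had no interval, so its 5 alternatives could not be among the 34. A limit of 500 bp can only raise the share of wide peaks. The tally is therefore no measure of robustness. After adjustment, the lower density of II was no longer past the threshold among the 50% of peaks with the best scores (ratio 0.844), with IV added (0.923) or in the list of replicate 2. Without replicate 1 or 2, that is in the list of the other replicate, the ratio was 0.588 to 0.870. In these lists the share of the centre was 37.1% to 41.0% and its difference from I, III and V 5.18 to 6.09 percentage points, on the other side of the null values without passing a test. With 1 replicate list the difference in support was −2.43 to 0.853 points. The share of peaks of 1000 bp or more was 2.23% without the stretches and 0.671% without 3 Mb bins, an alternative added after the data were seen. In the replicate lists it rested on very few peaks. It was 5.71% in replicate 1 (2 of 35, 1.58 to 18.6) and 2.56% in replicate 2 (1 of 39, 0.454 to 13.2). With a limit of 500 bp the series-wide share on II was 22.1%. Covered length was 7912 bp per Mb without the stretches, 7176 without the 3 bins and 6677 in the best-scored 50%. It was 1048 to 1059 in the replicate lists, which held fewer peaks. The other causes were not tested. No paired analysis was possible because peaks of the input group were not analysed here. Read depth is unknown, so its bearing on the weak peaks cannot be given.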
